A study of Mus musculus with 6 samples.

Results

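The genes described are the transcription factor NRF2 (gene symbol Nfe2l2), its inhibitor Keap1 and 8 genes under NRF2 control: Hmox1, Nqo1, Gclc, Gclm, Gsr, Txnrd1, Srxn1 and Slc7a11. These 10 genes were chosen by name from the 55401 genes with a value, and each symbol matched 1 Ensembl identifier. Their transcript levels were measured by RNA sequencing in the myocardium (heart muscle tissue) of male wild-type mice, after injection of either PBS, the saline control, or STZ. STZ (streptozotocin) kills the pancreatic beta cells that make insulin, and diabetes was modelled with it here. Each group had 3 libraries with a time label of 8 weeks. The sources used here do not give the event from which that time runs, nor the strain, age and STZ dose. No label ties each library to its own animal, so p-values measure only a spread between libraries, and it may be technical. The file of PBS replicate 3 listed only 7711 genes (13.9%), among them 7 of the 10: Gclc, Gsr and Srxn1 were not in it. Tests therefore used PBS replicates 1 and 2 against STZ replicates 1 to 3, and the third PBS library is given beside them where its file listed the gene.

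NRF2 is held at a low level in unstressed cells by KEAP1, an adaptor that hands it to a CUL3 ubiquitin ligase for degradation by the proteasome. Electrophiles and oxidants modify cysteines of KEAP1, so that NRF2 escapes, pairs with a small MAF protein in the nucleus and binds antioxidant response elements near its target genes. The targets make and recycle glutathione and thioredoxin, detoxify quinones, and break down haem. Since NRF2 is controlled mainly as a protein, the level of its transcript is not a measure of its activity.

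Values were deposited as FPKM (fragments per kilobase of transcript, relative to all mapped fragments). In the 5 complete files the sum of all FPKM ranged from 531384 to 589719. No source used here gives the number of fragments, so the depth behind a value is unknown and no counting error is given. Of 11556 genes tested with limma on log2(FPKM + 1), 5.82% passed an adjusted p of 0.05, 3.64% as higher and 2.17% as lower in STZ hearts. The PBS and STZ libraries of the fit did not overlap for 47.4% of tested genes, with STZ higher for 28.7% and lower for 18.8%. The median log2 difference of all tested genes was 0.06. Heart muscle genes were abundant in every library whose file listed them, with Myh6 (a myosin heavy chain) at 2219 FPKM or more and Tnnt2 (troponin T) at 671 FPKM or more. Within the 7 cardiomyocyte markers Actc1 (cardiac actin) fell by 0.70 on the log2 scale (limma adjusted p = 0.0282), and 6 of the 7 had a negative sign. Tnnt2 had the positive sign, with a difference of 0.36 (limma adjusted p = 0.218). Among the negative ones Myl2 and Pln had differences of only -0.13 and -0.02 (limma adjusted p = 0.602 and 0.925). Of all tested genes 57% had a positive sign. In whole tissue, fewer cells of one type and less RNA per cell cannot be told apart.

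NRF2 and a small MAF protein bind a core that can be written TGACNNNGC, where N is any base. Start-site windows of 300 bases (250 before the start and 50 from it on) were held for 7 of the 10 genes, as 9 windows, in RefSeq sequence of GRCm38.p6. On either strand the core was found in 4 of the 7 genes (Nfe2l2, Gclm, Srxn1 and Txnrd1), and in 14% of all 27025 genes with a window (12.4% of 32851 windows). The 4 matches are shown because they mark which members carry the core close to the start. The sequences are written on the strand of the gene, with the match in capitals. Where the core lies on the opposite strand, the capitals are its reverse complement.
Nfe2l2, minus strand, chr2:75704885-75704913, core beginning 240 bases before the start: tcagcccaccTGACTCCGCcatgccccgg
Gclm, plus strand, chr3:122245413-122245441, 134 bases before the start: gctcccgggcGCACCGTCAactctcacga
Txnrd1, plus strand, chr10:82859104-82859132, 92 bases before 1 of its 3 starts: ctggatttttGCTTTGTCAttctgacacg
Srxn1, plus strand, chr2:152105542-152105570, at base 29 of the transcript: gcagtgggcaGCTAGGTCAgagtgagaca
The related TGACTCA, the AP-1 site, does not overlap these 4 matches. It was found in the window of 1 member, Srxn1, which held it at 2 places, and in 5.95% of all genes with a window (5.2% of windows). Both copies lie before the start and are on the opposite strand. Other spellings of the NRF2 core were not searched, at these copies or elsewhere.
Srxn1, plus strand, chr2:152105412-152105438, 102 bases before the start: tcggagggccTGAGTCAccacgctgtg
Srxn1, plus strand, chr2:152105469-152105495, 45 bases before the start: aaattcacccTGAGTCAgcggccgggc
The windows of Nqo1, Keap1 and Slc7a11 held neither motif, which says only that these letters are not in those windows.

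Of the 9 tested genes, 2 rose in STZ hearts, Hmox1 and Nqo1, and 0 fell by limma. That is 22.2% of the tested members, beside 3.64% of all tested genes called higher. At an unadjusted limma p under 0.05, 4 members were higher (also Gclc and Nfe2l2) and 0 lower, beside 16.4% and 10.2% of all tested genes. Members were chosen with earlier results of these data known, so these shares are descriptions only. The PBS and STZ libraries of the fit did not overlap for 4 of the 9, all with STZ higher, beside 28.7% of all tested genes. The other 7 did not pass the threshold, 4 of them with a positive and 3 with a negative difference. The median log2 difference of the 9 was 0.27. The 10th gene, Slc7a11, lay too low to be tested.

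**Figure D1:**
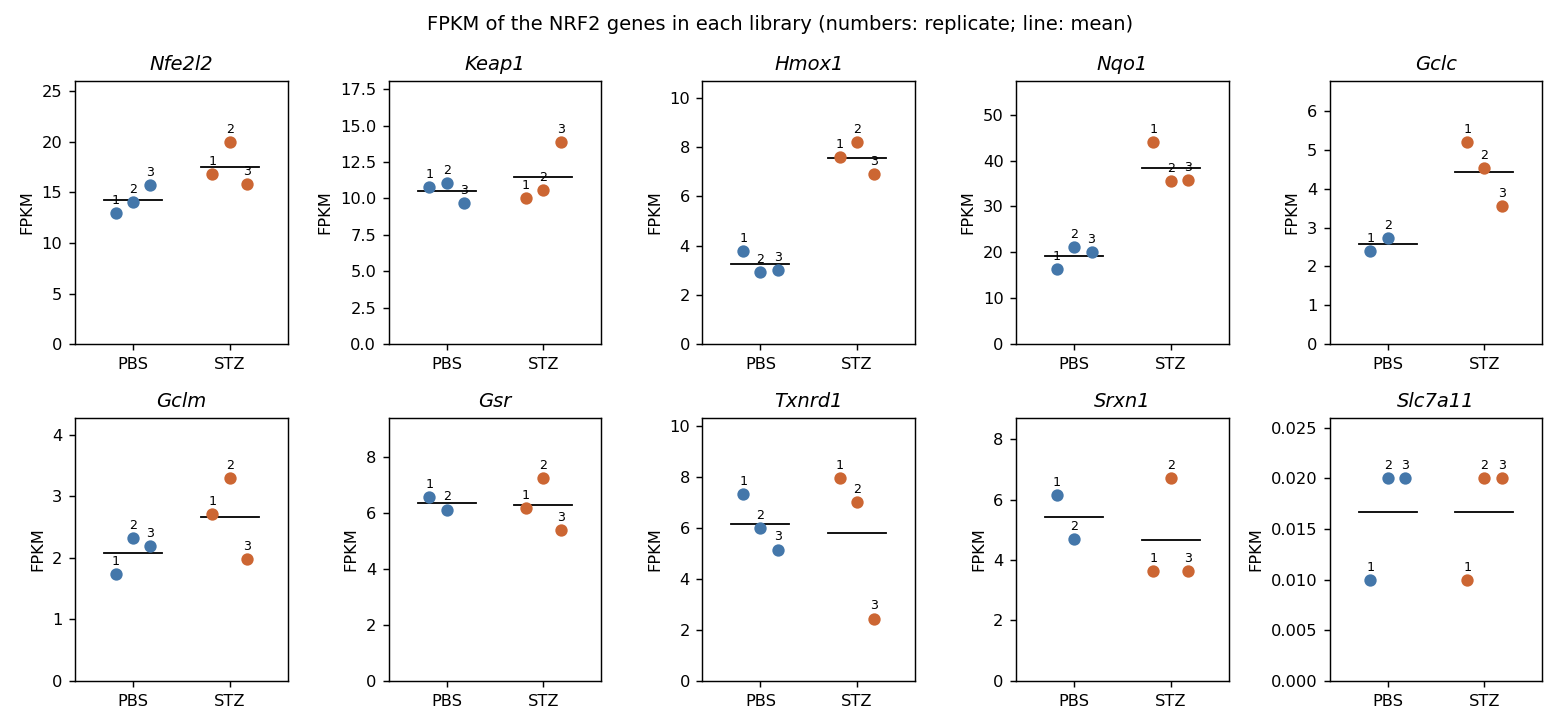
FPKM (vertical axis, from 0, with its own scale for each gene) of the 10 genes in each library; points are libraries labelled with their replicate number, and lines are group means. Hmox1 and Nqo1 lie higher in all 3 STZ libraries than in all 3 PBS libraries, while Slc7a11 stays at 0.01 to 0.02 FPKM and Gclc, Gsr and Srxn1 have no value for PBS replicate 3.

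Hmox1 encodes haem oxygenase 1, the inducible enzyme that opens the haem ring and yields biliverdin, iron and carbon monoxide. Its gene (ENSMUSG00000005413) lies on chromosome 8 at 75093621 to 75100589 (GRCm38, plus strand). Hmox1 stood at 3.78, 2.92 and 3.02 FPKM in the PBS libraries of number 1, 2 and 3 and at 7.61, 8.22 and 6.91 FPKM in STZ replicates 1, 2 and 3. All STZ libraries were above all PBS libraries. The PBS mean was 3.24 ± 0.47 FPKM (SD, n = 3) and the STZ mean 7.58 ± 0.656 FPKM (SD, n = 3), which is 2.34-fold. In the fit the log2 difference was 0.98 ± 0.14 (SE), with a 95% confidence interval of 0.64 to 1.33 (limma adjusted p = 0.0221). With the third PBS library and only genes listed in all 6 files, it was 1.02 (limma adjusted p = 0.00156). The call was lost without PBS replicate 1 (limma adjusted p = 0.112), PBS replicate 2 (0.162) or STZ replicate 1 (0.0534), and with no filter on low values (0.077). The range of the difference without any 1 library was 0.84 to 1.13.

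Nqo1 encodes a quinone reductase that moves 2 electrons to quinones and so keeps them from forming radicals. It is the member with the highest level in both groups, and lies on chromosome 8 at 107388225 to 107403206 (ENSMUSG00000003849, minus strand). Nqo1 stood at 16.27, 21.2 and 20.04 FPKM in PBS and at 44.08, 35.6 and 35.71 FPKM in STZ. The groups did not overlap, and STZ replicate 1 was the highest. The mean went from 19.2 ± 2.58 (SD, n = 3) to 38.5 ± 4.86 FPKM (SD, n = 3), which is 2.01-fold. The log2 difference was 1.00 ± 0.17 (SE), with a 95% confidence interval of 0.59 to 1.41 (limma adjusted p = 0.0297). With the third PBS library and genes of all 6 files it was 0.97 (limma adjusted p = 0.00355). The call was lost when any 1 of the 5 fitted libraries was left out, with limma adjusted p = 0.22 and 0.117 without PBS replicates 1 and 2 and 0.0581, 0.0566 and 0.0556 without STZ replicates 1, 2 and 3. It was also lost with no filter on low values (limma adjusted p = 0.0924).

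**Figure D2:**
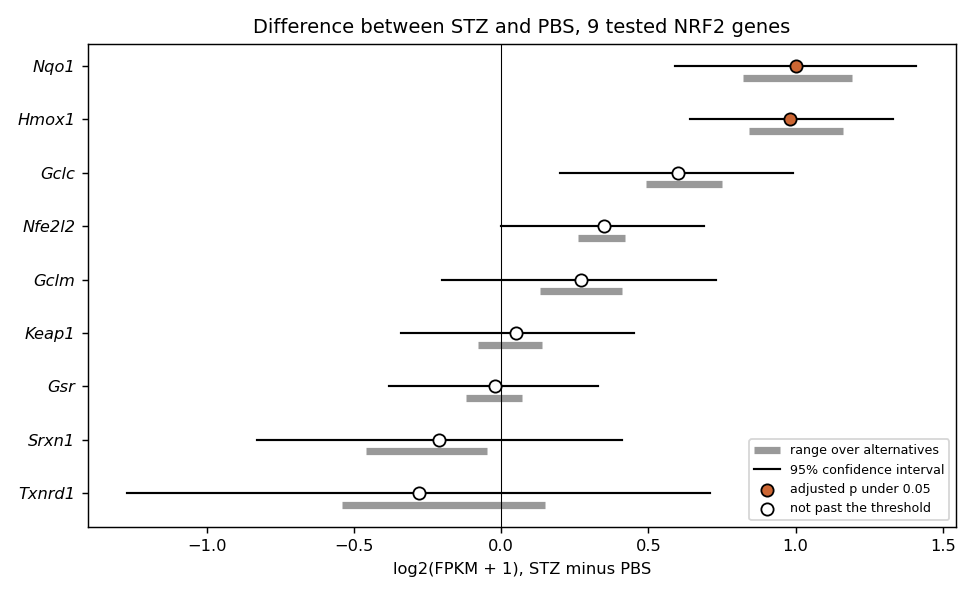
Difference between STZ and PBS on the log2(FPKM + 1) scale (horizontal axis) for the 9 tested genes; points are fitted differences, black lines 95% confidence intervals, grey bars the range over the alternative settings, and filled points passed an adjusted p of 0.05. Nqo1 (1.00) and Hmox1 (0.98) are the filled points, and the grey bars of Keap1, Gsr and Txnrd1 cross 0.

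The transcripts of the regulator and of its inhibitor did not pass. Nfe2l2 (ENSMUSG00000015839, chromosome 2, 75675513 to 75704641, minus strand) stood at 12.93, 14.07 and 15.71 FPKM in PBS and at 16.8, 19.99 and 15.82 FPKM in STZ. The groups did not overlap, but PBS replicate 3 and STZ replicate 3 lay next to each other. The log2 difference was 0.35 ± 0.14 (SE, 95% confidence interval 0 to 0.69, limma adjusted p = 0.183). Keap1 (ENSMUSG00000003308, chromosome 9, 21229730 to 21239361, minus strand) stood at 10.8, 11.04 and 9.66 FPKM in PBS and at 10, 10.55 and 13.89 FPKM in STZ. Its groups overlapped, STZ replicate 3 was highest, and the log2 difference was 0.05 ± 0.16 (SE, 95% confidence interval -0.34 to 0.45, limma adjusted p = 0.861), turning to -0.08 without STZ replicate 3 and to -0.02 after median centring. Over 10.9% of its exon length Keap1 overlaps exons of Gm16754 on the other strand, so reads of the pair could be mixed. The ratio of Nfe2l2 to Keap1 FPKM was 1.2, 1.27 and 1.63 in PBS and 1.68, 1.89 and 1.14 in STZ, with STZ replicate 3 the lowest of the 6.

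Glutathione is built in 2 steps, and the first and limiting one is run by glutamate-cysteine ligase, a pair of the catalytic subunit Gclc and the modifier subunit Gclm. Gclc (ENSMUSG00000032350, chromosome 9, 77754535 to 77794485, plus strand) stood at 2.4 and 2.74 FPKM in PBS replicates 1 and 2 and at 5.21, 4.53 and 3.56 FPKM in STZ. All STZ values were above both PBS values, with means of 2.57 ± 0.24 (SD, n = 2) and 4.43 ± 0.829 FPKM (SD, n = 3). The log2 difference was 0.60 ± 0.16 (SE, 95% confidence interval 0.2 to 0.99), which did not pass (limma adjusted p = 0.0852). Gclm (ENSMUSG00000028124, chromosome 3, 122245557 to 122270732, plus strand) stood at 1.73, 2.32 and 2.2 FPKM in PBS and at 2.72, 3.29 and 1.98 FPKM in STZ. Its groups overlapped through STZ replicate 3, and its log2 difference was 0.27 ± 0.19 (SE, 95% confidence interval -0.2 to 0.73, limma adjusted p = 0.414). It shares 4.71% of its exon length with Gm17494 on the other strand and 3.88% with Gm6061 on its own strand. The ratio of Gclc to Gclm FPKM was 1.39 and 1.18 in PBS replicates 1 and 2 and 1.92, 1.38 and 1.80 in the STZ libraries, so that PBS replicate 1 lay just above STZ replicate 2.

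Gsr encodes glutathione reductase, which turns oxidised glutathione back to its reduced form with NADPH. It lies on chromosome 8 at 33652523 to 33698163 (ENSMUSG00000031584, plus strand) and stood at 6.59 and 6.13 FPKM in PBS replicates 1 and 2 and at 6.19, 7.24 and 5.39 FPKM in STZ. The STZ libraries lay on both sides of the PBS libraries. The log2 difference was -0.02 ± 0.15 (SE, 95% confidence interval -0.38 to 0.33, limma adjusted p = 0.929), and its sign was positive after rescaling to TPM (0.04), without PBS replicate 1 (0.02) or without STZ replicate 3 (0.07). Slc7a11 encodes the subunit of the cystine-glutamate exchanger that carries cystine, the precursor of cysteine for glutathione, into cells. It lies on chromosome 3 at 49892526 to 50443614 (ENSMUSG00000027737, minus strand) and stood at 0.01, 0.02 and 0.02 FPKM in both groups. These values are at the smallest step of the deposited numbers, so no fold is given.

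In the thioredoxin branch neither gene passed. Txnrd1 encodes the cytosolic thioredoxin reductase and lies on chromosome 10 at 82833951 to 82897712 (ENSMUSG00000020250, plus strand). It stood at 7.33, 6 and 5.16 FPKM in PBS and at 7.95, 7.04 and 2.45 FPKM in STZ. STZ replicate 1 was the highest and STZ replicate 3 the lowest of the 6 libraries. The log2 difference was -0.28 ± 0.41 (SE, 95% confidence interval -1.27 to 0.71, limma adjusted p = 0.698), and 0.15 without STZ replicate 3. Srxn1 encodes sulfiredoxin, which restores over-oxidised peroxiredoxins, and lies on chromosome 2 at 152105516 to 152111376 (ENSMUSG00000032802, plus strand). It stood at 6.14 and 4.7 FPKM in PBS replicates 1 and 2 and at 3.65, 6.7 and 3.65 FPKM in STZ. The highest and the lowest values were both in STZ, and the log2 difference was -0.21 ± 0.26 (SE, 95% confidence interval -0.83 to 0.41, limma adjusted p = 0.633). The 4 genes with a TGACNNNGC core in their window (Nfe2l2, Gclm, Srxn1 and Txnrd1) are all among the 7 that did not pass. Of the 2 that rose, a window was held for Nqo1 and not for Hmox1. With that window alone, no link between the core and a change can be read. Elements outside the windows were not searched.

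FPKM are per length, so levels can be compared between genes. Within both groups they ran from Nqo1 through Nfe2l2 to Keap1, and these 3 did not overlap with their neighbours in that order. In PBS the next were Gsr (6.36 FPKM), Txnrd1 (6.16) and Srxn1 (5.42), whose neighbouring ranges overlapped, then Hmox1 (3.24), Gclc (2.57) and Gclm (2.08), whose ranges did not. In STZ Hmox1 (7.58 FPKM) came next after Keap1, ahead of Gsr (6.27), Txnrd1 (5.81), Srxn1 (4.67) and Gclc (4.43), and each neighbouring pair of these 5 overlapped. Slc7a11 was last in both.

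STZ replicate 3 was the lowest of the STZ libraries for 7 of the 9 tested members. Over all tested genes it was lowest for 35.5%. For Srxn1 it was level with STZ replicate 1. The exceptions were Keap1, where it was the highest, and Nqo1, where STZ replicate 2 was lower. Against the mean of the other STZ libraries, STZ replicate 3 differed by -1.3 for Txnrd1 on the log2 scale, and its differences for the other 6 lay between -0.17 and -0.42. In the same comparison the 2888 genes with the longest exons had a median of -0.07 and the 2888 with the shortest one of 0.14, and removal of this length trend left Hmox1 and Nqo1 past the threshold. The 4 atrial markers summed to 3300, 961 and 1590 FPKM in STZ replicates 1, 2 and 3 and to 1330 and 302 FPKM in PBS replicates 1 and 2, and 0 of the 4 passed by limma, with 1 at an unadjusted p under 0.05. Nppa made up most of each sum and was at 2864, 876 and 1591 FPKM in the STZ libraries, while the other 3 markers were lowest in STZ replicate 3, with Myl4 at 0.21 FPKM and Sln at 0. The atrial myosin light chain Myl7 was at 0.28 FPKM in STZ replicate 3 and at 0.21 FPKM in PBS replicate 3, against 37.86 FPKM or more in the other libraries. The part of gene length or atrial tissue in the low values of STZ replicate 3 was not tested.

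**Figure D3:**
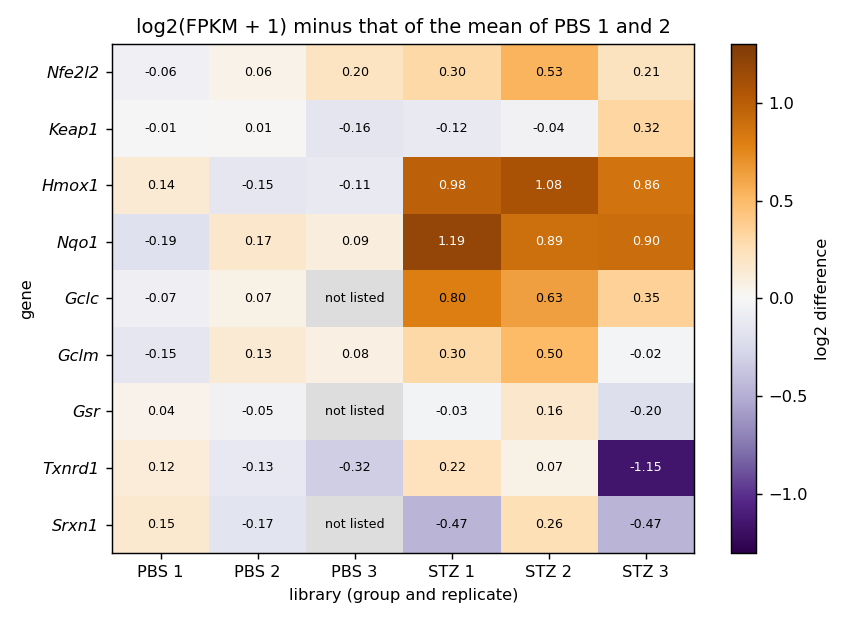
log2(FPKM + 1) of the 9 tested genes (rows) in each library (columns), minus that of the mean of PBS replicates 1 and 2; orange is higher, purple lower, and grey cells have no value in the file of PBS replicate 3. The Hmox1 and Nqo1 rows are orange in all 3 STZ columns, and the Txnrd1 cell of STZ replicate 3 is the darkest purple.

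Several cell types of the heart can express Hmox1, among them macrophages that take up red cells, so markers of other cells were set beside it. Of 13 macrophage markers 11 were tested and 0 passed by limma (1 higher and 2 lower at an unadjusted p under 0.05). Their summed level was 137 and 127 FPKM in the fitted PBS libraries and 107, 142 and 132 FPKM in STZ, so the groups overlapped. The complement genes C1qa, C1qb and C1qc made up most of each sum. Single markers, named after their values were seen, went both ways: Adgre1 and Csf1r had differences of -0.69 and -0.37 and Vsig4 one of 1.19 (limma adjusted p = 0.0668, 0.163 and 0.105). The haemoglobin-scavenging receptor Cd163 was at 4.11, 3.1 and 3.06 FPKM in PBS and 4.47, 5.11 and 4.82 FPKM in STZ, and did not pass (limma adjusted p = 0.192). The 7 erythroid markers summed to 310 and 283 FPKM in PBS and to 329, 959 and 361 FPKM in STZ, with STZ replicate 2 the highest. Of the 5 tested 0 passed by limma (0 higher at an unadjusted p under 0.05). STZ replicate 2 was also the highest STZ library for Hmox1, as for 5 of the 9 tested members and 40.5% of all tested genes. Without STZ replicate 2 Hmox1 had a difference of 0.93 (limma adjusted p = 0.0496). Of 8 neutrophil markers 3 were tested and all 3 were called higher (S100a8, S100a9 and Retnlg), beside 3.64% of all tested genes. Retnlg reached 1 FPKM in STZ libraries only. The list summed to 3.64 and 8.22 FPKM in PBS and to 41.9, 57.8 and 51.8 FPKM in STZ. S100a8, S100a9 and Retnlg made up most of each sum, while the granule genes Mpo and Elane were at 0 throughout. The untested Csf3r, Ly6g and Cxcr2 stayed below 1 FPKM, and of these Csf3r and Ly6g overlapped between the groups. Among 6 fibroblast markers the collagens Col1a1 and Col3a1 fell, with log2 differences of -1.67 and -2.68 (limma adjusted p = 0.00806 and 0.00175). Signs in that list were 3 positive and 3 negative, with Dcn at 0.38 and Pdgfra at 0.37 (limma adjusted p = 0.115 and 0.15). Among 6 smooth muscle and pericyte markers Acta2, smooth muscle actin, fell by 1.16 (limma adjusted p = 0.0221). There too 3 signs were positive and 3 negative, with Pdgfrb at 0.41 (limma adjusted p = 0.115). The fibroblast list summed to 112 and 99.3 FPKM in PBS and to 94.5, 95.7 and 98.2 FPKM in STZ, and the cardiomyocyte list to 11900 and 12600 FPKM in PBS and to 9440, 8970 and 10400 FPKM in STZ. The part of these cell types in the member values was not tested.

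Among 17 regulators and partners of NRF2, 13 were tested, 2 rose and 0 fell, with a median log2 difference of 0.20. The share higher was 15.4%, beside 3.64% of all tested genes. This list and those below were chosen with earlier results of these data known, so their shares are descriptions only. Maff, one of the small MAF proteins that pair with NRF2, stood at 3.42 and 2.05 FPKM in PBS replicates 1 and 2 and at 5.82, 8.07 and 7.69 FPKM in STZ, a log2 difference of 1.15 (limma adjusted p = 0.0366). Sqstm1 encodes p62, an autophagy receptor that binds KEAP1 and is itself an NRF2 target. It stood at 88.35, 92.49 and 92.07 FPKM in PBS and at 136.78, 154.27 and 154.36 FPKM in STZ, a log2 difference of 0.71 (limma adjusted p = 0.0299). For both genes the groups did not overlap. Over 17.3% of its exon length Sqstm1 overlaps exons of Mrnip on the other strand. The other small MAF genes, named for their role, did not pass, with Mafk at a difference of 0.38 and Mafg at 0.37. Cul3, the scaffold of the ligase that KEAP1 serves, had a difference of -0.11 and the repressor Bach1, which competes for the same elements at Hmox1, one of 0.20 (limma adjusted p = 0.668 and 0.436). Syvn1, an endoplasmic reticulum ubiquitin ligase also known to act on NRF2, is named here after its values were seen: it stood at 5.91, 6.58 and 6.78 FPKM in PBS and at 3.38, 4.2 and 3.78 FPKM in STZ, and missed the threshold (limma adjusted p = 0.0524). Nfe2l1, a related factor, was at 24.37 and 22.85 FPKM in PBS and at 21.8, 25.53 and 12.16 FPKM in STZ, again lowest in STZ replicate 3.

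Of 28 further NRF2 target genes 26 were tested, 3 rose and 0 fell, which is 11.5% beside the 3.64% of all tested genes. Their median log2 difference was 0.10. Ephx1, the microsomal epoxide hydrolase, stood at 13.12 and 11.39 FPKM in PBS replicates 1 and 2 and at 29.93, 28.58 and 32.77 FPKM in STZ (log2 difference 1.25, limma adjusted p = 0.00986). Gstm1, a glutathione transferase, went from 92.24 and 88.06 FPKM to 148.85, 163.39 and 173.4 FPKM (0.84, limma adjusted p = 0.0221), though it belongs to a family of similar genes whose reads the counting could share. Aox1, an aldehyde oxidase, went from 3.07 and 2.98 FPKM to 5.08, 5.6 and 6.72 FPKM (0.75, limma adjusted p = 0.0387). The ferritin chains Fth1 and Ftl1, which store the iron that haem oxygenase releases, were the most abundant of the list, with Fth1 at 216.6, 219.79 and 230.02 FPKM in PBS and 253.01, 279.48 and 314.6 FPKM in STZ (0.36, limma adjusted p = 0.144), and Ftl1 at a difference of 0.27 (limma adjusted p = 0.425). Of the enzymes that make NADPH, named for their role, 0 of the 4 listed passed by limma, and Idh1 alone had an unadjusted p under 0.05. G6pdx, Pgd and Me1 had differences of 0.11, -0.03 and -0.02. Idh1 stood at 13.39, 11.06 and 12.77 FPKM in PBS and at 16.08, 21.12 and 15.54 FPKM in STZ, with groups that did not overlap (0.48, limma adjusted p = 0.145). The thioredoxin Txn1 and the peroxiredoxin Prdx1 had differences of 0.00 and -0.03.

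Of 14 other genes of glutathione synthesis, use and transport 12 were tested, 1 rose (8.33%, beside 3.64% of all tested genes) and 0 fell (median 0.15). The gene that rose was Slc3a2, the heavy chain that pairs with Slc7a11 and with several other amino acid carriers. It stood at 8.12, 8.45 and 8.86 FPKM in PBS and at 16.74, 17.23 and 16.56 FPKM in STZ, a log2 difference of 0.94 (limma adjusted p = 0.0139), while its partner Slc7a11 stayed at 0.01 to 0.02 FPKM. The glutathione peroxidases Gpx4 and Gpx1, the most abundant of the list, had differences of 0.01 and 0.19 (limma adjusted p = 0.985 and 0.429).

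Of 10 other genes of the thioredoxin system, all tested, 1 rose (10%, beside 3.64% of all tested genes) and 0 fell (median 0.19). Txnip, which binds and inhibits thioredoxin and is induced by glucose, stood at 62.88 and 59.87 FPKM in PBS replicates 1 and 2 and at 269.85, 265.91 and 213.54 FPKM in STZ (log2 difference 2, limma adjusted p = 0.0045). It overlaps Gm15441 on the other strand over 19.4% of its exon length. The mitochondrial peroxiredoxin Prdx3 stood at 140.68, 135.54 and 140.39 FPKM in PBS and at 118.48, 112.32 and 101.76 FPKM in STZ, and did not pass (-0.32, limma adjusted p = 0.162).

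In the list of haem synthesis and breakdown 11 of 12 genes were tested and 0 passed by limma. At an unadjusted p under 0.05 there were 4, all lower in STZ, named here after their values were seen: the synthesis enzymes Alad, Uros and Cpox, and Hpx, the haem carrier hemopexin. Of all tested genes 10.2% were lower at that p. The median of the list was -0.31, beside 0.06 for all tested genes. Hmox2, the constitutive haem oxygenase, stood at 21.05, 22 and 19.32 FPKM in PBS and at 23.9, 26.02 and 23.98 FPKM in STZ (0.19, limma adjusted p = 0.354). The ratio of Hmox1 to Hmox2 FPKM was 0.180, 0.133 and 0.156 in PBS and 0.318, 0.316 and 0.288 in STZ. Hmox2 shares 40.2% of its exon length with Cdip1 on the other strand, so this ratio carries that doubt. Alas1, which starts haem synthesis, had a difference of -0.27 (limma adjusted p = 0.264).

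Nqo1 also belongs to the genes that the aryl hydrocarbon receptor controls. Of 7 genes of that receptor and its targets 5 were tested, 1 rose (20%, beside 3.64% of all tested genes) and 0 fell (median 0.52). Cyp1a1, a cytochrome P450 monooxygenase, stood at 1.8 and 1.53 FPKM in PBS replicates 1 and 2 and at 19.78, 25.48 and 23.52 FPKM in STZ (log2 difference 3.16, limma adjusted p = 0.00127). Cyp1b1 stood at 1.96, 0.18 and 1.92 FPKM in PBS and at 6.5, 3.64 and 3.34 FPKM in STZ, and did not pass (limma adjusted p = 0.0882). Ahr, Arnt and Tiparp had differences of 0.52, 0.12 and 0.06 and did not pass (limma adjusted p = 0.0974, 0.707 and 0.85). Of the untested genes, Ahrr overlapped between the groups, and Ugt1a6a was higher in STZ but at 0.36 FPKM or less. Which of the 2 routes bears on Nqo1 was not tested.

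**Figure D4:**
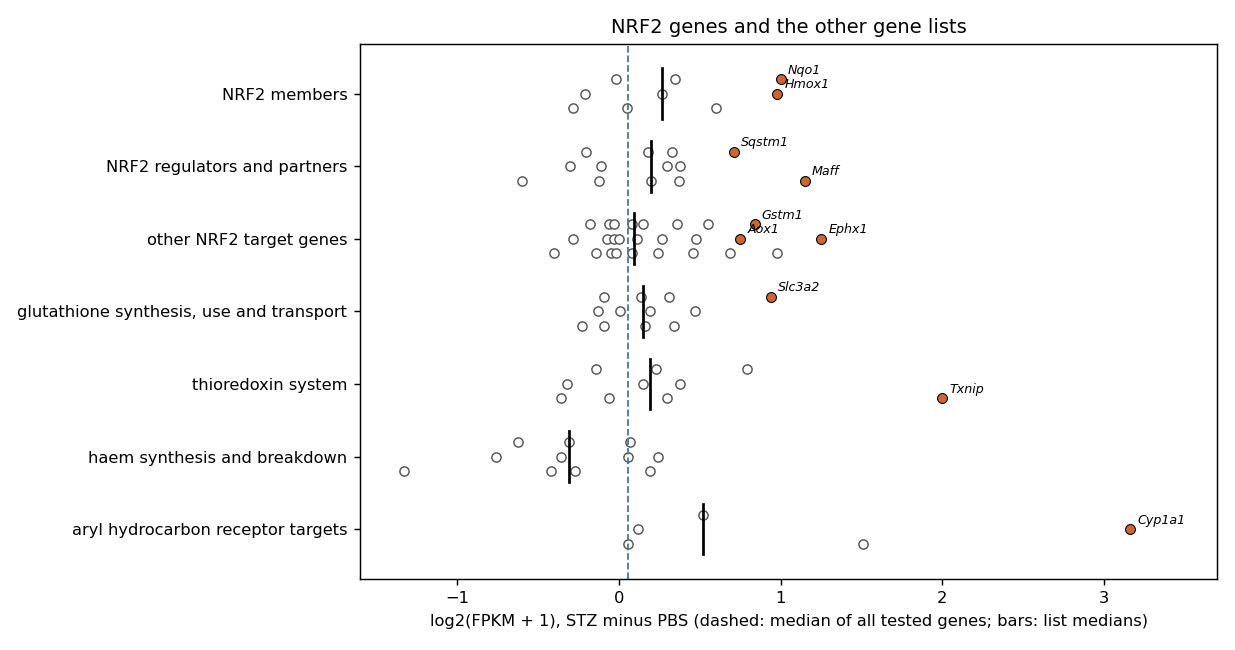
Difference between STZ and PBS on the log2(FPKM + 1) scale (horizontal axis) for tested genes of the NRF2 set and of 6 other lists (rows); filled, named points passed an adjusted p of 0.05, black bars are list medians, and the dashed line is the median of all tested genes (0.06). All filled points lie to the right, and the haem list has the lowest median (-0.31).

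Over the 6 other lists together, 8 of 77 tested genes rose (10.4%) and 0 fell by limma, beside 3.64% higher and 2.17% lower of all tested genes. Since the lists were chosen with earlier results of these data known, this share is a description and no test of the lists. At an unadjusted p under 0.05 the higher genes numbered 4 among regulators and partners, 9 among further targets, 1 in the glutathione, 3 in the thioredoxin, 0 in the haem and 3 in the aryl hydrocarbon receptor list, and 16.4% of all tested genes were higher at that p. The lower genes numbered 1 among regulators and partners, 1 among further targets, 2 in the thioredoxin system, 4 in the haem list and 0 in the glutathione and aryl hydrocarbon receptor lists, beside 10.2% of all tested genes. The 8 were Maff, Sqstm1, Ephx1, Gstm1, Aox1, Slc3a2, Txnip and Cyp1a1. Without PBS replicate 1 or PBS replicate 2 the count was 2, and without STZ replicate 2 it was 4. The count of lower genes became 2 after median centring, 1 after quantile normalization and 5 with the genes of all 6 files.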

How the data were processed

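Myocardial RNA of male wild-type mice (3 PBS and 3 STZ libraries) was poly(A)-selected and its second cDNA strand marked with dUTP, per the labels' protocols. The authors deposited FPKM per gene with 2 decimals, made with cutadapt 1.9, HISAT2 2.0.4 and StringTie 1.3.4d on GRCm38, per the submitters' processing notes. The sources used here do not give the annotation release, strand setting and filters, so reads of overlapping genes could be shared. FPKM scale with the total of mapped fragments. Mitochondrial genes made up 42% to 47.3% of the summed FPKM of the fitted libraries. Their share of the fragments is unknown.

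The file of PBS replicate 3 lists under 50% of the genes and was left out of the fit. Genes that reached 1 FPKM in 2 or more fitted libraries were tested two-sided on log2(FPKM + 1) with limma 3.58.1 in R 4.3.3 (lmFit, eBayes with trend). Benjamini-Hochberg adjustment ran over all 11556 genes at a threshold of 0.05, and adjusted p-values given without a named alternative come from this fit. Those of an alternative were adjusted over the genes tested in it. Differences on this scale understate the change of low genes.

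Symbols (55141 of 55401 identifiers), loci and exon overlaps came from GENCODE release M21 of GRCm38, and start-site windows from RefSeq (GRCm38.p6). Python 3.11.15, pandas 2.3.3, the R package data.table (version 1.17.8) and matplotlib 3.10.9 were used. Named are all members and, from each other list, genes past the threshold and the 2 with the highest mean. A few more are named for their role or after their values were seen. Members and lists were chosen with earlier results of these data known. Alternatives were other pseudocounts, filters and scalings, a replicate block, robust eBayes, the third PBS library and each library left out. Removal of a length trend was chosen after seeing the data.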

Additional observations from a re-analysis of the deposited data

How the results depend on the processing

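With FPKM as deposited 62.6% of the 672 calls were higher (421 higher, 251 lower), with median centring 48.5% (325 and 345), quantile normalization 50.2% (336 and 333), TPM 73.1% (464 and 171) and without PBS replicate 1 75%. Median centring moved the median of all genes from 0.06 to -0.01 and TPM to 0.13. Without a filter 81 of 26229 genes passed (46 higher, 35 lower), with 0 of the NRF2 genes and 4 of the other lists higher. With the third PBS library added 1171 passed (737 higher, 434 lower), and 2 genes of the other lists were lower. With the genes of all 6 files 381 genes were lower, and 5 of the lists. Lower list genes numbered 2 after median centring and 1 after quantile normalization. When 1 library was left out, 24 to 398 genes passed, 18 to 231 higher and 6 to 167 lower, with 0 to 1 of the NRF2 genes and 2 to 7 list genes higher. A fit with 1 PBS library assumes that it varies like the others.

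Hmox1 passed in 13 of 18 alternatives (0.84 to 1.16) and Nqo1 in 11 of 18 (0.82 to 1.19). Gclc passed in 0 of 16 (0.49 to 0.75, limma adjusted p 0.061 to 0.398) and Nfe2l2 in 0 of 18 (0.26 to 0.42). Keap1 changed sign to -0.02 with median centring and to -0.08 without STZ replicate 3. Gsr changed to 0.04 with TPM, 0.02 without PBS replicate 1 and 0.07 without STZ replicate 3, and Txnrd1 to 0.15 without STZ replicate 3. Without any 1 library Keap1 ranged from -0.08 to 0.14, Gsr from -0.12 to 0.07 and Txnrd1 from -0.54 to 0.15. Fewer samples or more genes tested are part of how some alternatives are built, and beyond that the cause was not tested.

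The replicate numbers were not taken as pairs, because no label ties same-numbered libraries to an animal or batch. Deviations of same-numbered libraries correlated at 0.176, -0.049 and 0.151 over 4824 genes, and those of differently numbered ones at -0.233 to 0.093. Myl7 also fell with the number in both groups. It stood at 262.36, 37.86 and 0.21 FPKM in PBS and at 357.43, 73.69 and 0.28 FPKM in STZ. Myl4 and Sln fell likewise where listed, but Nppa did not in STZ. Whether the number marks something shared was not tested. With the number as a replicate block 64 genes passed (36 higher, 28 lower), 0 of the NRF2 genes and 2 list genes higher, and Keap1 was at -0.08, Gsr at 0.07 and Txnrd1 at 0.15. Hmox1 then had a difference of 1.04 (limma adjusted p = 0.0728) and Nqo1 one of 1.05 (0.0898). PBS replicate 3 was not in the fit, so STZ replicate 3 stood alone in its block. The differences of the block fit are therefore those found without STZ replicate 3, and these alternatives are not independent.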

Other observations

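The genes whose log2(FPKM + 1) followed 3 of the NRF2 genes most closely over the 5 fitted libraries were sought among 4584 genes with a mean of at least 5 FPKM. For Hmox1 they were Tmem164 (Pearson r = 0.9992), Fam189a2 (0.9987) and Angptl4 (0.9973), a lipase inhibitor. For Nqo1 they were Agtr1a (0.9993), an angiotensin receptor, Hspb7 (0.9974), a small heat shock protein of muscle, and Zbtb22 (0.9956). For Nfe2l2 they were Vipas39 (0.995), Gars (0.9938), a glycyl-tRNA synthetase, and Cdk18 (0.9922). These are descriptions over 5 points that share libraries and groups, and r above 0.95 was reached by 196, 137 and 85 genes for Hmox1, Nqo1 and Nfe2l2.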
